A study of Mus musculus with 6 samples.

Results

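The 100 brightest circular RNA (circRNA) probes of the control mouse heart are described here, with their levels in control and in diabetic hearts. A probe's level is its log2 intensity minus the 75th percentile of the array over non-control probes, so a level of 0 equals that percentile. The members were the 100 probes with the highest mean level over the 3 C57BL/6 arrays, out of 14221 circRNA probes without an outlier spot, a share of 0.703%. The C57BL/6 values chose the members, so their C57BL/6 levels are a description. The db/db arrays took no part in the ranking, although an outlier spot on any array of either group removed a probe beforehand. Values of single arrays are listed below in the order of replicates 1, 2 and 3 of each group.

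The study measured the cardiac apex of 3 C57BL/6 mice and 3 db/db mice, all aged 21 weeks, on 1 Agilent array per animal with the Cy3 dye. Its title places the comparison in cardiac fibrosis. Mice of the db/db strain carry a defective leptin receptor in all tissues and become obese and diabetic, and the C57BL/6 mice served as controls. The labels give neither the sex of the animals nor the genetic background of the db/db line, and they do not say whether the controls were littermates. Both groups went through the same treatment with RNase R, an exonuclease that digests linear RNA. The samples are pieces of whole tissue, so the effects of fewer cells of a type and of less RNA per cell cannot be told apart.

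A circRNA forms when the spliceosome joins the end of an exon back to the start of the same or an earlier exon. The resulting ring has no free ends, which protects it from exonucleases and makes it long-lived, and stable rings can build up in cells that rarely divide, such as heart muscle cells. Some circRNAs bind microRNAs or proteins, and for many no function is known. The circRNA probes carry Arraystar IDs, and the sources used here do not pair these IDs with host genes, circRNA names, coordinates or sequences. The members are therefore given by ID, and nothing is said of what they encode or bind. A probe's brightness also depends on its sequence and on labelling, so the order of brightness is not an order of abundance.

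The arrays lay on 2 slides, with C57BL/6 replicates 1 and 2 on slide 1 and C57BL/6 replicate 3 on slide 2 beside the 3 db/db arrays. The processed intensity is the background-corrected brightness of a spot in scanner units. Its 75th percentile was 715, 557 and 399 on the C57BL/6 arrays and 494, 296 and 376 on the db/db arrays. Both arrays of slide 1 lay above every array of slide 2, and the C57BL/6 array of slide 2 lay within the range of the db/db arrays. Hspb7, which encodes a small heat shock protein of heart muscle, was the only one of 35 listed cell type markers with a named probe, and its level was 1.57 to 2.13. It was also the only one of the 11 heart muscle markers listed. Since RNase R digests linear RNA, which includes mRNA, this level does not check the tissue label.

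All 100 members were well above background on every array, and no member spot was flagged as saturated. The dimmest member exceeded the brightest of 15 negative-control probes by 23.8-fold to 29.9-fold on the C57BL/6 arrays and by 11.2-fold to 21.4-fold on the db/db arrays. The lowest member mean in C57BL/6, 5.46, also lay above the C57BL/6 levels of the brightest mRNA probe, which were 5.07, 4.75 and 5.12. That probe, annotated to the olfactory receptor gene Olfr1307, had a mean level of 4.88 over all arrays. On C57BL/6 replicate 3 and on db/db replicates 1 and 3 the dimmest member lay below it, and on the other arrays above it. The members were spread over the array surface, with 28, 27, 22 and 23 of them in 4 equal parts of it.

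The mean level of the members in C57BL/6 heart fell steeply over the first ranks and then flattened. It ran from 8.76 at the brightest through a median of 6.08 to 5.46 at rank 100, a span of 9.80-fold. The brightest member stood 433-fold over the 75th percentile and the last one 44.1-fold. Only 3 members had a mean of at least 8 and 17 a mean of at least 7, while 47 were under 6. The largest gap between neighbours, 0.50 on the log2 scale, lay below rank 3, whereas the median gap was only 0.015.

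**Figure D1:**
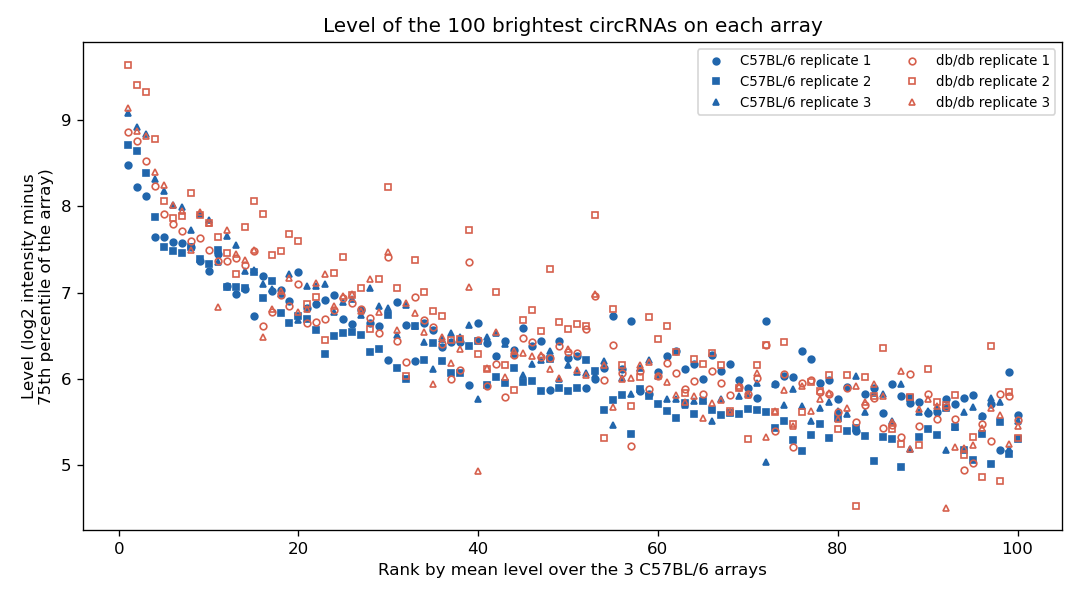
Level on each of the 6 arrays (log2 intensity minus the array's 75th percentile) of the 100 brightest circRNAs, against their rank in C57BL/6; filled blue symbols are C57BL/6 arrays and open red symbols are db/db arrays. The first ranks stand clear of the rest in both groups, and many open squares (db/db replicate 2) lie above the other arrays.

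The brightest member, ASCRP4006710, had control levels of 8.48, 8.71 and 9.08 and db/db levels of 8.86, 9.64 and 9.14. The groups overlapped, and the C57BL/6 array of slide 2 lay above 1 of the 3 db/db arrays. ASCRP4006342 followed with 8.23, 8.64 and 8.91 in C57BL/6 and 8.75, 9.40 and 8.88 in db/db. The third member, ASCRP4012684, read 8.12, 8.39 and 8.84 in C57BL/6 and 8.53, 9.32 and 8.82 in db/db. In each of these 3 circRNAs C57BL/6 replicate 1 was the lowest array and db/db replicate 2 the highest.

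ASCRP4009692 had levels of 7.65, 7.88 and 8.32 on the C57BL/6 arrays and of 8.24, 8.78 and 8.40 on the db/db arrays. ASCRP4008132 read 7.64, 7.53 and 8.17 in C57BL/6 and 7.91, 8.07 and 8.25 in db/db. These 5 members held ranks 1 to 5 in both groups, in the same order. Each of them was brighter than its successor on all 6 arrays, and so was rank 5 over rank 6. Further down the order was loose, since only 7 of the 99 pairs of neighbours kept their order on all 3 C57BL/6 arrays and 6 on all 6 arrays. Most neighbours therefore did not differ beyond the spread between arrays.

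The limit of the set cut through a dense part of the scale. The last members inside were ASCRP4005744, with C57BL/6 levels of 6.08, 5.13 and 5.19, and ASCRP4010044, with 5.58, 5.30 and 5.51. Just outside lay ASCRP4006652, with 5.69, 5.16 and 5.54, and ASCRP4003791, with 5.24, 5.29 and 5.82. The last member and the farther of these 2 outsiders were 0.014 apart in mean level, far less than the spread of any of the 4 between arrays.

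Most circRNAs that were bright in control heart were also bright in diabetic heart. Of the 100 members, 86 were among the 100 brightest circRNAs by the mean over the db/db arrays. All 60 members of ranks 1 to 60 were among them, as were 17 of the 20 in ranks 61 to 80 and 9 of the 20 in ranks 81 to 100. On single arrays, 93, 93 and 94 members were among the 100 brightest in C57BL/6, whose arrays chose them, and 88, 81 and 89 in db/db. On all 6 arrays at once this held for 71 members, including 49 of the 50 brightest. Spearman correlations between arrays over the members ranged from 0.76 to 0.95, a description over 100 probes that share their arrays.

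The 14 members that dropped out of the 100 brightest in db/db came from the low end of the set, with C57BL/6 means between 5.46 and 5.77. Their db/db ranks reached down to 146, and all 14 had a lower mean there, with log2 differences from -0.44 to -0.011. These 14 were picked for their lower place in db/db, which is part of that difference. The lowest was ASCRP4004874, with levels of 5.77, 5.18 and 5.62 on the C57BL/6 arrays and 4.95, 5.12 and 5.20 on the db/db arrays. It was followed by ASCRP4005105, with 5.81, 5.06 and 5.67 in C57BL/6 and 5.02, 5.33 and 5.24 in db/db. In both circRNAs C57BL/6 replicates 1 and 3 lay above every db/db array and C57BL/6 replicate 2 did not, so the groups overlapped.

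In their place 14 circRNAs entered, 12 of them from the first 150 ranks of C57BL/6 and the farthest from rank 284. The brightest entrant in db/db, ASCRP4011128, read 5.23, 5.59 and 5.43 in C57BL/6 and 6.36, 7.31 and 5.95 in db/db. The groups did not overlap, and the log2 difference was 1.12 ± 0.31 (SE, n = 3 per group) with a limma adjusted p of 0.297. ASCRP4004120 read 5.52, 5.18 and 5.40 in C57BL/6 and 5.97, 6.71 and 6.04 in db/db, again without overlap. Its log2 difference was 0.87 ± 0.21 (SE, n = 3 per group), and its limma adjusted p was 0.263. Both were picked for their db/db level, which is part of that difference.

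The members took up a large part of the circRNA signal. Their summed intensity was 29.5%, 30.8% and 32.8% of that of all circRNA probes on the control arrays and 32.3%, 35.7% and 32.7% of it on the db/db arrays. The 10 brightest members alone held 6.87%, 8.99% and 10.4% on the C57BL/6 arrays and 9.09%, 11.2% and 10.3% on the db/db arrays. Both shares were lowest on C57BL/6 replicate 1 and highest on db/db replicate 2. When the 100 brightest were chosen anew on each array, so that neither group set the list, they held 31.3% ± 1.62 (SD, n = 3) of the signal in C57BL/6 hearts. In db/db hearts the share was 34.5% ± 2.54 (SD, n = 3). By array it was 29.8%, 31.1% and 33.0% in C57BL/6 and 32.9%, 37.4% and 33.1% in db/db. The C57BL/6 arrays of slide 1 were the lowest, and the C57BL/6 array of slide 2 lay above db/db replicate 1. The part of the slide in the group difference was not tested. The difference of 3.20 percentage points did not pass a two-sided exact permutation test (p = 0.2), for which 0.1 is the smallest p with 3 arrays against 3. Without db/db replicate 2 the difference was 1.73 percentage points.

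The spread between arrays was wider among the members than among circRNAs at large. Within C57BL/6 the members' median SD was 0.28, against 0.20 over all 14218 circRNA probes tested, and within db/db it was 0.26 against 0.19. Quantile normalization, which gives every array the same distribution of values, brought the members to 0.15 and 0.17 and all circRNAs to 0.17 and 0.18. The order of the 2 spreads therefore turned with the normalization.

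Within C57BL/6 the members followed 2 patterns that split by rank. Replicate 3 was the highest of the 3 control arrays for 42 members (31.4% of all circRNA probes tested), and 15 of these were among the 20 brightest. Replicate 1 was the highest for 52 members (22.1% of all), of which 3 were among the 20 brightest and 31 among the 40 of ranks 61 to 100. Only 6 members were highest on replicate 2, compared with 46.6% of all circRNA probes tested. This depended on the scaling. Over all 6 arrays, 0 members were highest on C57BL/6 replicate 2 at 75th percentile scaling (28.4% of all). Under quantile normalization 15 members were (19.6% of all).

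The 2 members of largest SD in C57BL/6 show the second pattern. ASCRP4006765 read 6.67, 5.62 and 5.04 in C57BL/6 and 6.39, 6.40 and 5.33 in db/db. ASCRP4013451 read 6.67, 5.36 and 5.83 in C57BL/6 and 5.23, 5.68 and 6.01 in db/db. Replicate 1 was the highest control array for both, and the groups overlapped widely. Their SDs in C57BL/6, 0.83 and 0.66, compare with 0.049 for ASCRP4001539, the member of smallest SD there.

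Over all 6 arrays, 53 members had their highest level on db/db replicate 2 and 52 their lowest on C57BL/6 replicate 2. Among all circRNA probes tested these shares were 26.1% and 14.9%. Under quantile normalization they were 15 members (25% of all circRNAs) and 6 members (19.4%). The array on which most members were lowest was then db/db replicate 2, with 34 (27.6% of all). The place of db/db replicate 2 within its group therefore depended on the scaling, and the contribution of that array to the group difference is given beside the results below.

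**Figure D2:**
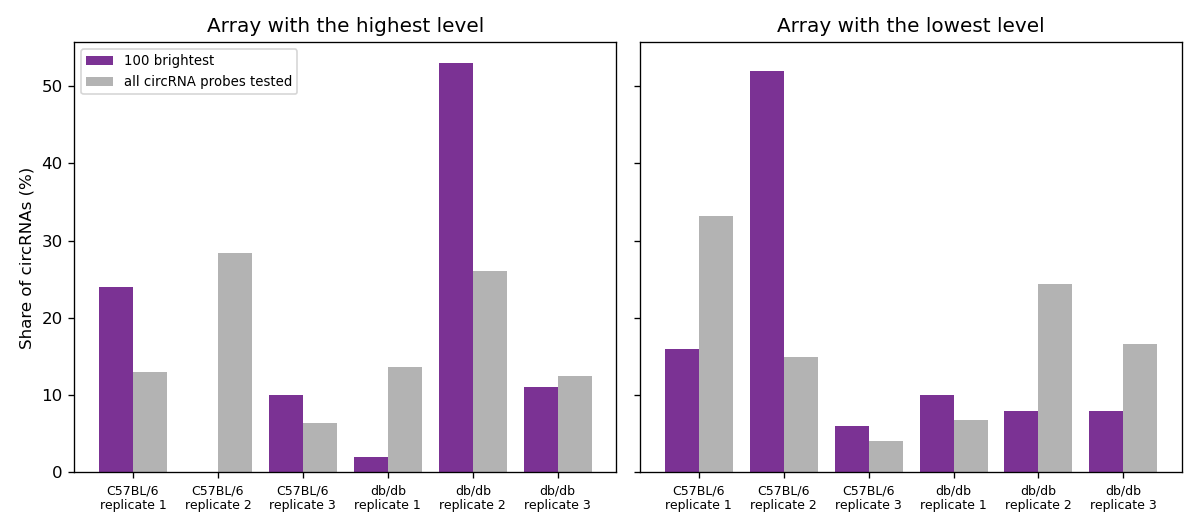
Share of the 100 brightest circRNAs (purple) and of all 14218 circRNA probes tested (grey) that had their highest level (left) or lowest level (right) on each array, in percent, at 75th percentile scaling. Purple bars stand out at db/db replicate 2 for the highest level (53%) and at C57BL/6 replicate 2 for the lowest (52%).

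Before any scaling, the 4 brightest circRNAs varied less between arrays than most other members. The processed intensity of ASCRP4006710 was 254714, 233775 and 215923 in C57BL/6 and 229274, 236706 and 212966 in db/db. Its highest array exceeded its lowest by 1.20-fold, and over ranks 1 to 4 this span was 1.17-fold to 1.25-fold. It was 1.80-fold for ASCRP4008132 at rank 5 and 1.80-fold to 1.99-fold over ranks 5 to 8. The median span of the 100 members was 2.36-fold, and 6 members spanned under 1.5-fold. The median intensity of all 100 members ranged from 25950 on db/db replicate 3 to 55295 on C57BL/6 replicate 1, a span of 2.13-fold. The 75th percentile spanned 2.42-fold, and the array's bright corner spots, which are controls for locating the grid, spanned 1.97-fold.

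The 75th percentile, which is subtracted from each level, was lowest on db/db replicate 2 (296) and highest on C57BL/6 replicate 1 (715), and its part in the group differences was not tested. The 5 brightest members differed by 0.29 to 0.53 on the log2 scale (db/db minus C57BL/6) at 75th percentile scaling. With slide as a block the same 5 differed by -0.10 to 0.16, and that contrast has a single control array, C57BL/6 replicate 3. Under quantile normalization they differed by -0.017 to 0.00028. For ranks 1 to 4 this follows from the method, since a circRNA that holds the same rank on every array receives the same value there. ASCRP4008132, at -0.017, did not hold rank 5 on every array. On db/db replicate 2 its level of 8.07 lay below the 8.22 of the member of rank 30.

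**Figure D3:**
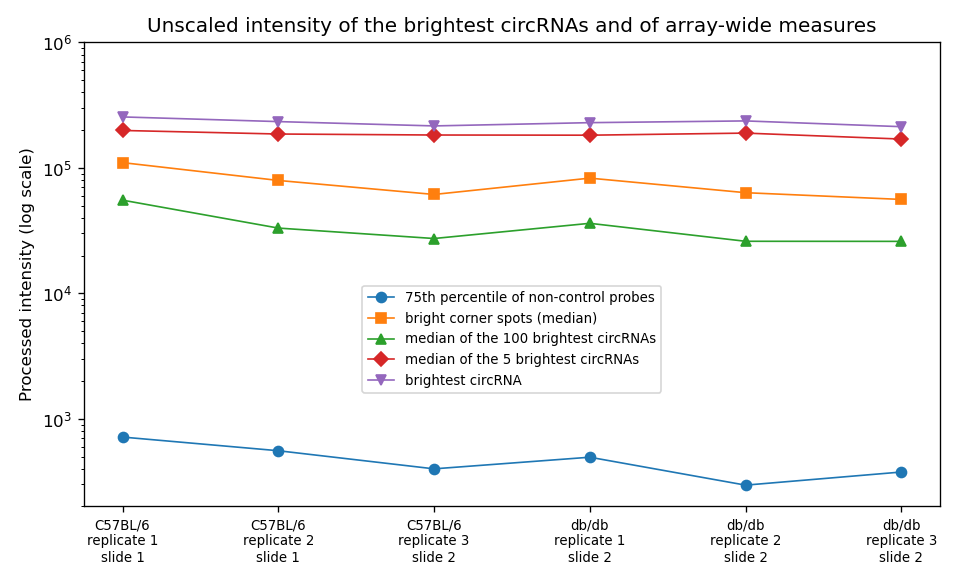
Processed intensity before scaling (log axis, scanner units) on the 6 arrays, for the brightest circRNA, the median of the 5 and of the 100 brightest circRNAs, the median bright corner spot and the 75th percentile of non-control probes. The brightest circRNA spans 1.20-fold over the arrays, while the 75th percentile spans 2.42-fold.

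The comparison of db/db with C57BL/6 hearts asked which circRNAs changed in the diabetic heart. No member passed limma's test at an adjusted p under 0.05, and neither did any other circRNA (0.0% of the 14218 tested). The smallest adjusted p among the members, 0.220, was also the smallest of all circRNAs. At an unadjusted p under 0.05 there were 7 members, against 10.5% of all circRNAs tested, a share no smaller than that of the members. Of these, 6 were higher in db/db (background 4.45%) and 1 was lower (background 6.07%). The 7 became 4 without db/db replicate 2 (background 8.52%), 11 without C57BL/6 replicate 2 (7.18%) and 13 without C57BL/6 replicate 3 (13.0%). They were 12 under quantile normalization (background 13.2%) and 3 with slide as a block (background 1.29%). With the array's 99th percentile subtracted in place of the 75th, 1 member passed at an adjusted p under 0.05 (background 0.781%). The rule used the C57BL/6 levels, which enter this contrast, so the counts describe the members only.

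The groups did not overlap for 10 members, all higher in db/db, where the background was 9.73% higher and 7.21% lower. Their log2 differences ran from 0.29 to 1.24, and 5 of the 10 had an unadjusted p under 0.05. All 10 had their highest level on db/db replicate 2, the array of lowest 75th percentile. Under quantile normalization 9 members were higher without overlap (background 11.8%) and 8 lower (background 8.43%), and 6 of the original 10 were among the 9. On slide 2 the single control array lay outside the range of the db/db arrays for 53 members (background 39.8%), below all of them for 35 (background 19.8%) and above all of them for 18 (background 19.9%). Leaving out 1 array gave 12 to 32 members without overlap, the fewest without db/db replicate 2 (background 30.0%) and the most without C57BL/6 replicate 1 (background 25.5%), while the background with all arrays was 16.9%.

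Only 3 members differed by at least 1 on the log2 scale (background 0.281%), all of them higher in db/db, and 0 members were lower by as much (background 0.506%). ASCRP4001539, rank 53 in C57BL/6 and 18 in db/db, had levels of 6.00, 6.09 and 6.04 on the C57BL/6 arrays and of 6.96, 7.90 and 6.98 on the db/db arrays. The control arrays lay almost on 1 value, and every db/db array was clearly above them. The db/db mean was 2.35-fold the control mean, and the log2 difference of 1.24 ± 0.24 (SE, n = 3 per group) had an unadjusted p of 0.000646 and a limma adjusted p of 0.220. It was the member that passed with the 99th percentile, at a limma adjusted p of 0.0320. The difference was 1.24 with slide as a block and 1.08 under quantile normalization, and it was 0.93 without db/db replicate 2.

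ASCRP4007838, rank 39 in C57BL/6 and 15 in db/db, had levels of 5.94, 6.39 and 6.63 on the C57BL/6 arrays and of 7.36, 7.73 and 7.06 on the db/db arrays. The control array of slide 2 was the closest to the db/db arrays, yet below each of them. The db/db mean was 2.10-fold the control mean, and the log2 difference of 1.07 ± 0.23 (SE, n = 3 per group) had an unadjusted p of 0.00108 and a limma adjusted p of 0.220. With slide as a block the difference was 0.76, and with array weights, which give less weight to arrays that deviate more, it was 0.69.

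The third of these members, rank 30 in C57BL/6, read 6.21, 6.74 and 6.82 in C57BL/6 and 7.41, 8.22 and 7.47 in db/db. For this circRNA the log2 difference was 1.11 ± 0.25 (SE, n = 3 per group), with a limma adjusted p of 0.237. All 3 had their highest level on db/db replicate 2 and none overlapped between groups. Over the 19 fits that were run, including those with an array left out, the smallest difference among the 3 was 0.69.

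In the other direction no member had every db/db array below every C57BL/6 array. The 1 member with an unadjusted p under 0.05, named after its value was seen, was ASCRP4004874, whose array levels are given above. The control mean was 1.36-fold the db/db mean, and the log2 difference of -0.44 ± 0.18 (SE, n = 3 per group) had an unadjusted p of 0.0400 and a limma adjusted p of 0.457. Its difference was -0.57 under quantile normalization, -0.31 without C57BL/6 replicate 1 and -0.61 without C57BL/6 replicate 2.

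**Figure D4:**
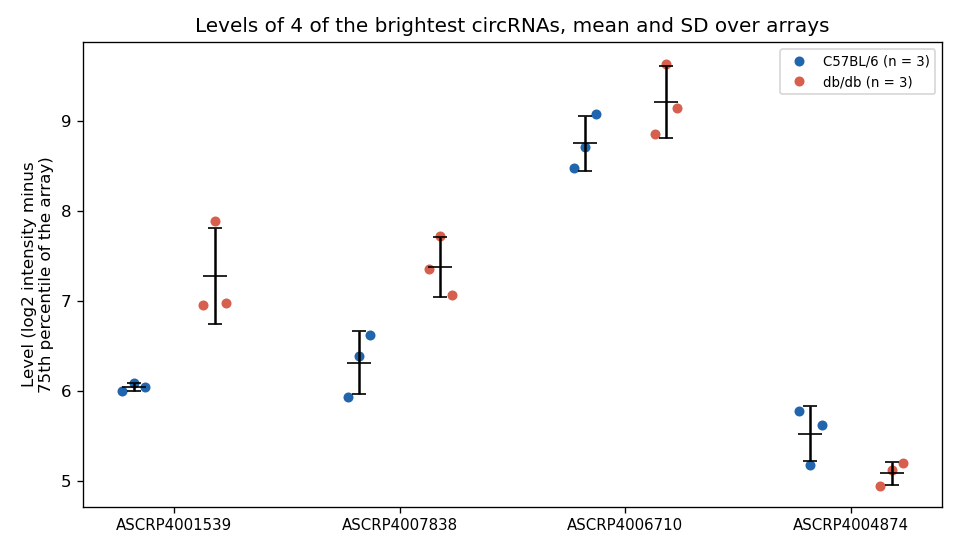
Level (log2 intensity minus the array's 75th percentile) of 4 members; points are arrays, ordered by replicate number, and bars show the mean ± SD of 3 arrays per group. ASCRP4001539 and ASCRP4007838 were higher on every db/db array, while the groups overlapped for the brightest member, ASCRP4006710, and for ASCRP4004874.

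Over the whole set of members most differences were small, and the direction of the members' median turned with the scaling. At 75th percentile scaling 70 members were higher in db/db, where 52.1% of all circRNAs were, and 94 differed by under 0.5 in either direction. The members' median log2 difference was 0.18 (quartiles -0.037 and 0.29), beside 0.014 over all circRNAs tested (quartiles -0.15 and 0.17). Under quantile normalization only 40 members were higher (background 52.9%), and the median was -0.034 beside 0.017 over all circRNAs. The log2 values of the authors' deposited table gave -0.025 beside 0.011, which may not be a reversal separate from that one. A total of 30 members were higher at 75th percentile scaling and lower under quantile normalization, while 40 were higher and 30 lower under both. Over all 19 fits 28 members were higher and 10 lower each time. Not all of these fits are separate, since some give the same differences by construction. The slide block and slide 2 alone do so, as do the main fit, the replicate block and the changes of filter. The median was 0.048 with the 99th percentile (beside -0.12 over all circRNAs), 0.066 with array weights (beside 0.0038) and 0.13 with normexp background correction (beside 0.11).

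The median difference also varied along the ranks. The ranks were set by the mean of the control arrays, and the same mean is subtracted in each difference. A lower median near the limit of the set can therefore come from the choice of members. Whether a change in db/db hearts itself varied by rank was not tested. The median difference was 0.26 in ranks 1 to 20 and 0.25 in ranks 41 to 60, where 17 and 15 of 20 members were higher. In ranks 81 to 100 it was -0.016, with 9 of 20 higher. Under quantile normalization the median was -0.051 in ranks 1 to 20 and -0.14 in ranks 81 to 100, with 7 of 20 higher in each. Ranks 41 to 60 were the exception there, at 0.059 with 12 of 20 higher.

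By array, the median level of the members was 6.27, 5.90 and 6.10 in C57BL/6 and 6.19, 6.46 and 6.11 in db/db. Db/db replicate 2 was the highest and C57BL/6 replicate 2 the lowest, and the other 4 arrays mixed the groups. Without db/db replicate 2 the members' median difference was 0.087, and without C57BL/6 replicate 2 it was 0.073. On slide 2 alone it was 0.076, beside -0.018 over all circRNAs, with 62 members higher (background 45.9%). For members chosen on C57BL/6 replicates 1 and 2 only, of which 94 are among the 100, the median of db/db minus C57BL/6 replicate 3 was 0.12. In that comparison the control array took no part in the ranking and has no replicate.

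**Figure D5:**
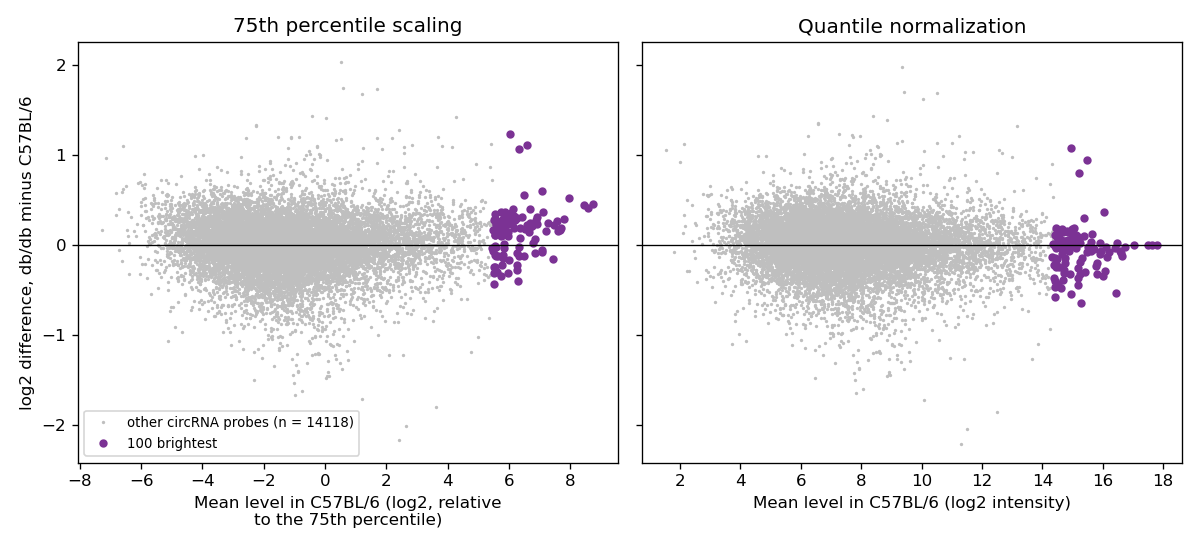
Log2 difference (db/db minus C57BL/6) against the mean level in C57BL/6 for the 100 brightest circRNAs (purple) and the other circRNA probes tested (grey), at 75th percentile scaling (left) and under quantile normalization (right). The purple cloud lies mostly above 0 on the left (median 0.18) and around 0 on the right (median -0.034), and 3 members stay apart at the top of it in both.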

How the data were processed

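Per the file headers, the processed intensity of each spot was background-subtracted and detrended within its array by Agilent Feature Extraction 11.0.1.1, on a design based on mm9. Limma is also named by the submitters' processing notes, without a role or version. A further deposited table holds the authors' log2 values, and how these were normalized is not given in the sources used here. In it ASCRP4006710, the brightest member, had a log2 group difference of -1.20e-15, beside 1.25e-15 under quantile normalization. A circRNA of fixed rank receives the same value under that method, so both settings may not be separate checks. Deposited flags per spot mark saturation, outliers and signal well above background.

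Log2 processed intensities were averaged per probe, and each array's 75th percentile (non-control probes only) was subtracted. Of 14236 circRNA probes, 15 with an outlier spot were left out, and 3 more that were well above background on fewer than 3 arrays were ranked but not tested. The group term was tested two-sided by lmFit and eBayes of limma 3.58.1 (R 4.3.3) without covariates, with Benjamini-Hochberg adjustment over all 14218 probes and a threshold of 0.05. The step was tested on simulated data with independent errors and no slide effect, so that run does not cover differences between slides. The members, tests and lists were chosen with earlier results of these data known.

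Named were the 5 brightest members, 2 on either side of the limit, up to 2 per direction of smallest p without overlap, the 2 of largest control SD, the 2 lowest in db/db and the 2 brightest entrants. Host gene lists could not be read, since IDs were not matched to genes. Of 50 mRNA probes, 44 were named through the GRCm38.p6 gene table, used for names only. Per the series' design text each sample came from a different donor, and the small number of arrays limits precision. Replicate numbers were not used as pairs in the main test. Deviations from the group means correlated at -0.26, -0.14 and 0.42 for numbers 1, 2 and 3. Deviations within a group depend on one another, so these values cannot settle whether the arrays were paired. Alternatives covered scaling, background correction, filters, slide and replicate blocks, array weights, each array left out and other choices of members.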

Additional observations from a re-analysis of the deposited data

How the results depend on the processing

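The count of 0 members at a limma adjusted p under 0.05 became 1 (ASCRP4001539, adjusted p 0.0320) only with the 99th percentile in place of the 75th, a setting chosen after the data were seen, under which 0.781% of all circRNAs passed. The members at an unadjusted p under 0.05, 7 at first, were 12 under quantile normalization (13.2% of all circRNAs), 13 in the authors' deposited table (12.8%), 4 with the 99th percentile (8.07%), 3 with slide as a block (1.29%), 3 on slide 2 alone (1.60%) and 11 when members were chosen on the db/db arrays (10.5%). With 1 array left out they were 4 to 13, namely 4 without db/db replicate 2 (8.52% of all circRNAs), 11 without C57BL/6 replicate 2 (7.18%) and 13 without C57BL/6 replicate 3 (13.0%). The members without overlap, 10 at first, were 17 under quantile normalization (20.2%) and 17 with the 99th percentile (11.8%). Against C57BL/6 replicate 3 alone they were 53 on slide 2 and 56 for members chosen on slide 1 (39.8% of all circRNAs for both). With 1 array left out they were 12 to 32, the most without C57BL/6 replicate 1 (25.5%), then 25 without C57BL/6 replicate 3 (30.8%), 19 without C57BL/6 replicate 2 (24.5%), 19 without db/db replicate 3 (23.1%), 17 without db/db replicate 1 (28.2%) and 12 without db/db replicate 2 (30.0%), where the background with all arrays was 16.9%. The median log2 difference, 0.18, was 0.073 to 0.23 with 1 array left out. It reversed to -0.034 under quantile normalization and to -0.025 in the authors' table, which may not be separate reversals. It was 0.048 with the 99th percentile, 0.066 with array weights and 0.13 with normexp (beside 0.11 over all circRNAs). The share of signal in each array's 100 brightest differed by 1.73 percentage points without db/db replicate 2, in place of 3.20. With the replicate block, the 7 became 6 (11.2% of all circRNAs) and none passed after adjustment (0 members). Whether the numbers pair these arrays is not settled. Counts for the 50 and 200 brightest were read as shares. The arrays' number limits every value. The members lay far above background, and whether the brightest were limited at the upper end of the intensity scale was not tested.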
